A study of Mus musculus with 27 samples.

Results

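Accessible chromatin was compared between cells given the cardiac factor Gata4 alone (G) and cells given the cardiac factor Mef2c alone (M), over all 30815 regions that the authors counted, of which 20494 had enough counts to be tested. The comparison rests on 3 G and 3 M libraries, 6 of the 24 libraries with counts, in a series that labels 27 samples. The assay was ATAC-seq: a transposase inserts sequencing adapters where DNA is exposed, and the count of a region follows its accessibility. Both groups came from a fibroblast line of the neonatal mouse heart (strain Cd-1) that was immortalised with large T antigen and carries an alpha-MHC-GFP reporter, and both were infected with retrovirus, cultured with the Tgfβ inhibitor sb431542 and the Wnt inhibitor xav939, and collected at day 2. They differ, per the labels, only in the factor the virus carried. Groups that serve below for comparison are T (Tbx5 alone), GM, GT and MT (pairs) and GMT (all 3 factors), all with the inhibitors, and the control, which received a dsRed virus and no inhibitor. The cells are 1 immortalised line and were not sorted, so a level is an average over cells with and without the factor, and fewer opened cells cannot be told apart from less opening per cell. Replicates are labelled biological, but no label tells whether they come from separate cultures, so the p-values reflect only how far these samples spread, which may be technical.

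Gata4 is a zinc-finger protein that binds GATA motifs and can bind its sites in closed chromatin. Mef2c is a MADS-box protein that binds A/T-rich sites and drives muscle genes, often together with other factors. Both are needed for heart development, and with Tbx5 they form the classical mixture used to turn cardiac fibroblasts into cardiomyocyte-like cells. The counted regions carry mm9 coordinates and no gene names, and no sequence or annotation of that build was used, so they are named by position, and marker genes and motifs are not analysed here.

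Total counts were 1124313, 386147 and 1544120 in G replicates 1 to 3 and 625166, 1031724 and 456282 in M replicates 1 to 3. On the scale used below, the count scaled to a common library size (CPM), 1 count was worth between 0.706 and 2.6 CPM in G and between 1.03 and 2.22 CPM in M. Across the 20494 regions tested, Spearman correlations were 0.796 to 0.936 between G libraries, 0.881 to 0.929 between M libraries and 0.542 to 0.665 between a G and an M library. By this correlation each pair within a group was thus more alike than any G and M pair. G replicate 2, the G library with the lowest total, was the least like its group. It correlated at 0.796 and 0.809 with the other G libraries and at 0.824 with GT replicate 1. The other G libraries correlated at 0.936 with each other. The library labelled GT replicate 1 stood apart from its label: its correlation with G replicate 1 was 0.941, against 0.73 and 0.722 with the other GT libraries. The main counts of GT versus MT, and some of its fold changes, are therefore given with and without it. No G or M library repeated another, since counts within a group differed by 3.64 to 5.11 times the sampling noise in G and 1.4 to 2.15 times in M (chi-square per degree of freedom). Between a G and an M library the range was 2.96 to 15.6. By this measure G replicate 2 and M replicate 3 differed less (2.96) than any pair of G libraries.

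The chromatin of the 2 groups differed at many regions in both directions. Of the 20494 regions tested, 6293 (30.7%) were called different by edgeR's quasi-likelihood test at an adjusted p below 0.05. Of these, 3248 (15.8% of those tested) were higher in G and 3045 (14.9%) higher in M. The median log2 fold change, G minus M, was 1.97 among regions higher in G and -2.22 among regions higher in M, against 0.01 over all regions tested. The scaling places that overall median near 0 and so bears on the balance of directions. Under the scalings tried, 51.6% to 52.5% of calls were higher in G, but all of them placed the median at 0.01 to 0.03. With the scaling kept and a stricter filter on low counts, 2349 regions were higher in G and 1795 higher in M. A difference of at least 4-fold, a log2 fold change of 2 or more in size, was reached by 1550 (47.7%) of the regions higher in G and by 1824 (59.9%) of those higher in M. The levels behind these differences were modest. Regions higher in G had a median of 39.8 CPM in G and 9.38 CPM in M, and regions higher in M a median of 36.4 CPM in M and 7.17 CPM in G. The G and M libraries did not overlap at 5746 (91.3%) of the called regions, against 40.3% of all regions tested. The number of calls varied with the libraries used. Leaving out a single G or M library gave from 4391 (without G replicate 3) to 7217 (without G replicate 2). Without M replicate 2 there were 2165 regions higher in G and 2590 higher in M. With replicate 3 of every group left out, a fit with fewer libraries in all groups, the number was 3012. Among the 3012, 97.7% had been called with all libraries.

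**Figure D1:**
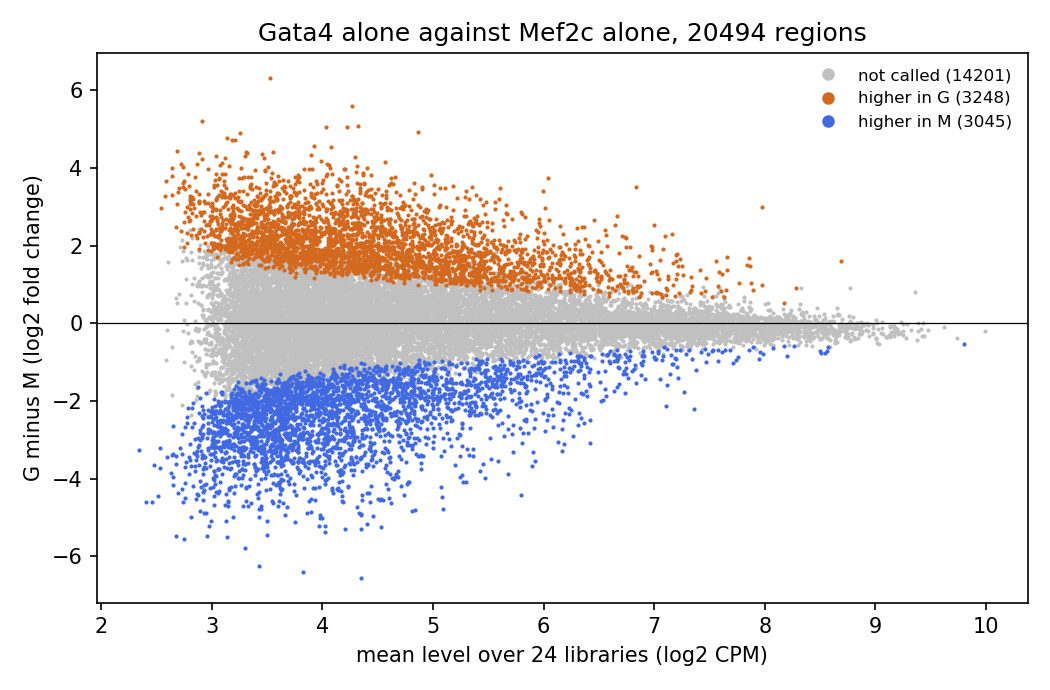
Each point is 1 of the 20494 regions, with its mean level over the 24 libraries on the x axis (log2 CPM) and its G minus M log2 fold change on the y axis. Colours mark the 3248 regions called higher in G and the 3045 called higher in M, which spread over nearly the whole range of levels on both sides of 0.

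The regions highest in G over M were described first. The 12 named here have the largest log2 fold changes among called regions with at least a median mean level and libraries that do not overlap. At chr5:107876951-107877176, a region of 226 bp ranked first, G replicates 1 to 3 had 217, 114 and 238 CPM, and the M libraries 8.36, 3.1 and 8.87 CPM. The lowest G library was thus more than 10-fold above every M library, and the log2 fold change was 4.92 ± 0.54 (SE, adjusted p = 1.07e-07). The groups without Gata4 differed among themselves, with 23.5 ± 7.17 CPM (SD, n = 3) in the control, 6.78 ± 3.19 CPM in M and 5.08 ± 2.98 CPM in T. At chr1:75452098-75452357, the second in rank, the G libraries had 134, 36.4 and 160 CPM and the M libraries 10, 3.1 and 6.65 CPM (log2 fold change 4.17 ± 0.64, adjusted p = 1.19e-05). Here as at the third region, chr2:91005167-91005500, G replicate 2 was far below the other G libraries. The third had 128, 23.4 and 128 CPM in G and 3.34, 2.07 and 15.5 CPM in M, with a log2 fold change of 4.0 ± 0.70 (adjusted p = 5.99e-05). Its groups came closer to overlapping than those of the regions ranked above it.

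The regions ranked 4 to 12 had log2 fold changes from 3.84 down to 3.56. At chr18:83134353-83134559 the G libraries had 101, 46.7 and 110 CPM and the M libraries 6.69, 5.17 and 6.65 CPM, with the control in between at 23.1 ± 4.59 CPM. A pair of the 12 regions are neighbours, chr2:61107393-61107667 and chr2:61107871-61108249, so they are not independent examples. The first had 77.9, 39 and 67.8 CPM in G and 6.69, 0 and 8.87 CPM in M, and the second 83.4, 39 and 96.8 CPM in G and 8.36, 3.1 and 8.87 CPM in M. At chr1:43424240-43424548 the control, at 40.3 ± 2.35 CPM, lay well above M (6.94 ± 2.96 CPM) and below G (90.9 ± 32.6 CPM). A different order appeared at chr6:89558566-89559035, where T had 57.1 ± 27.3 CPM and G 162 ± 74.2 CPM, against 12.3 ± 1.73 CPM in M. The other regions were chr6:72230359-72230747, chr4:43576473-43576748, chr8:63904986-63905285 and chr1:157643063-157643549, with 64 to 103 CPM in G and 5.01 to 8.5 CPM in M. Over all 12, the G mean ran from 61.6 to 190 CPM and the M mean from 5.01 to 12.3 CPM. In none of them did the mean of T or of the control exceed that of G.

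The 12 regions highest in M over G, chosen by the same rule, had log2 fold changes from -5.25 to -4.5. The first in rank was chr18:26069730-26069989, with 194, 233 and 118 CPM in M replicates 1 to 3 and 2.72, 15.6 and 2.12 CPM in the G libraries. The log2 fold change was -5.25 ± 0.63 (adjusted p = 4.49e-07), and G replicate 2 was again the library nearest to M. At chr2:48254008-48254321 the M libraries had 88.6, 76.5 and 77.6 CPM and the G libraries 3.63, 2.6 and 1.41 CPM, which came from 4, 1 and 2 counts. This region was close to the detection limit in G (log2 fold change -4.96 ± 0.53, adjusted p = 8.86e-08). At chr15:34809079-34809431, ranked 3, M had 139, 146 and 124 CPM and G 4.53, 7.79 and 3.53 CPM (log2 fold change -4.83 ± 0.51, adjusted p = 7.17e-08). A second region of the same chromosome, chr15:53161147-53161620, followed with 192, 95.2 and 122 CPM in M and 2.72, 10.4 and 4.24 CPM in G. At both regions of chromosome 15 the lowest M library was more than 9-fold above the highest G library.

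At chr10:122957734-122957936, a region of 203 bp, M had 147, 155 and 131 CPM and G 8.16, 2.6 and 3.53 CPM, while the control had 22.1 ± 11.7 CPM. The highest M mean among the 12 was that of chr11:32846515-32846968, with 182, 202 and 204 CPM in M and 8.16, 15.6 and 5.65 CPM in G (log2 fold change -4.50 ± 0.43, adjusted p = 1.33e-08). There the control (8.41 ± 0.553 CPM) and T (6.5 ± 3.16 CPM) were as low as G, so that M stood alone among the groups with a single factor or none. The same order held at chr4:64237548-64237799, where M had 111 ± 21.4 CPM, G 5.35 ± 2.48 CPM, T 4.36 ± 4.79 CPM and the control 7.87 ± 8.67 CPM. At chr2:67823737-67824172 T was higher, at 20.6 ± 15.1 CPM, with M at 90.9 ± 20.3 CPM and G at 4.01 ± 2.26 CPM. The other regions were chr5:47690754-47691371, chr17:13680847-13681136, chr3:40029963-40030257 and chrX:165232161-165232654, with M means of 72.6 to 105 CPM and G means of 4.04 to 5.51 CPM. Over all 12, the M mean ran from 72.6 to 196 CPM and the G mean from 2.54 to 9.8 CPM, and neither T nor the control exceeded M. The 24 named regions kept their direction and their call in all 480 combinations of a region and an alternative analysis. They were chosen from the same libraries for large and separated differences, so this outcome was largely set by the choice.

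**Figure D2:**
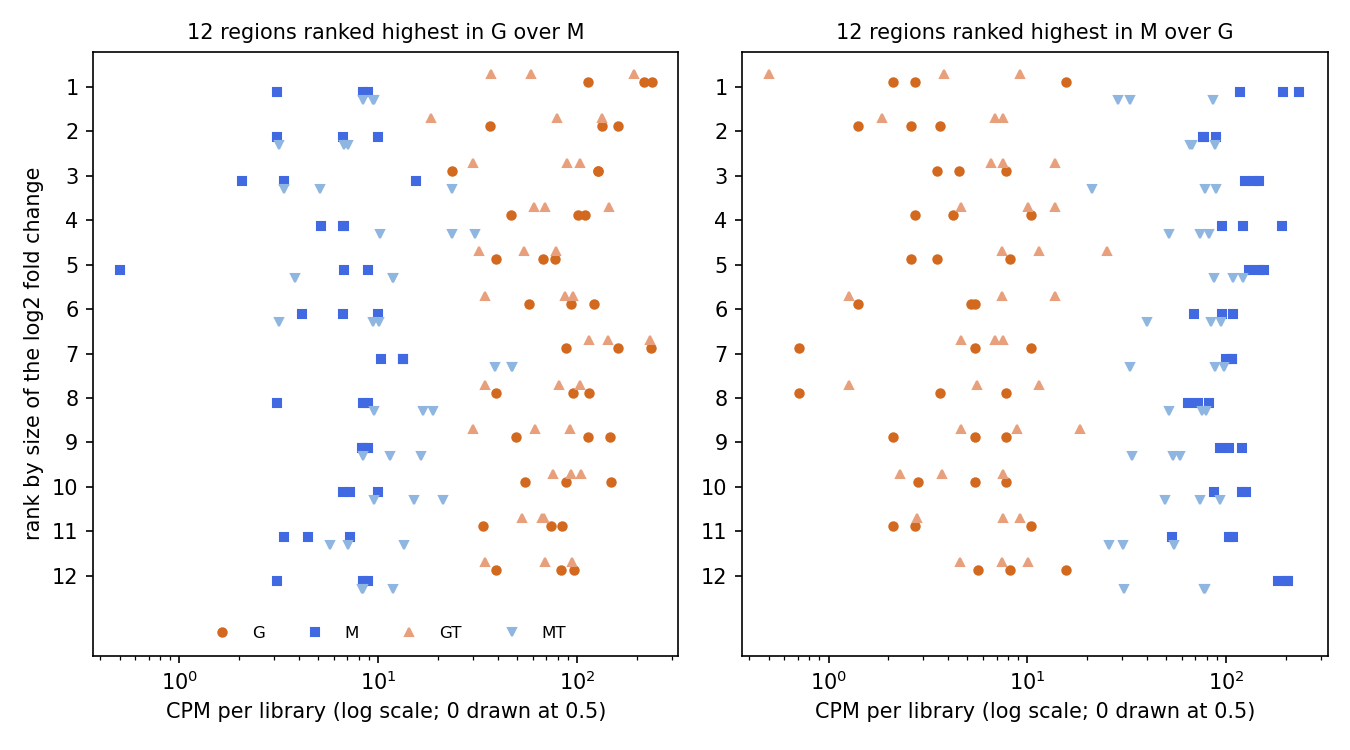
The 12 regions highest in G over M (left) and the 12 highest in M over G (right) are ranked from top to bottom, and each marker is the CPM of 1 library on a log axis, with 0 drawn at 0.5. G and M libraries do not overlap in any row by the rule of choice, and GT libraries lie towards the G side and MT libraries towards the M side; the rule used these only through the mean level over all libraries.

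The same exchange of Gata4 for Mef2c was available in other libraries, since GT and MT differ in these factors and share Tbx5. In GT versus MT, 4056 of the 20494 regions (19.8%) were called, 1753 (8.55%) higher in GT and 2303 (11.2%) higher in MT. Of the 6293 regions called in G versus M, 6170 (98.0%) had the same sign in GT versus MT, against 9989 (70.3%) of the regions not called. Called in both comparisons and in the same direction were 2968 regions, which is 47.2% of the G versus M calls and 73.2% of the GT versus MT calls. Only 2 regions were called in opposite directions. Split by direction, 1455 (44.8%) of the regions higher in G were called higher in GT, and 1513 (49.7%) of those higher in M were called higher in MT. These were 811 (22.2%) and 1230 (36.7%) when the library labelled GT replicate 1 was left out. Across all regions tested, the log2 differences of the 2 comparisons correlated with Pearson's r of 0.81, a description over regions that share libraries and depth. Without the library labelled GT replicate 1, GT versus MT had 2777 calls (12.8% of 21657 regions tested), 1119 higher in GT and 1658 higher in MT. The same sign was then found at 95.5% of 7001 regions called in G versus M and at 69.3% of those not called, and r was 0.75. In that fit 2041 regions were called in both and in the same direction, 29.2% of the G versus M calls and 73.5% of the GT versus MT calls. The GT versus MT calls also varied with the libraries used, with 1903 without MT replicate 1 and 4459 without GT replicate 3. They numbered 1323 and 1692 when replicate 1 or 2 of every group was left out, fits with fewer libraries in all groups.

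All 24 named regions were called in the same direction in GT versus MT, and all 24 again without the library labelled GT replicate 1. Over all G versus M calls these shares were 47.2% and 29.2%. The 24 were chosen for large differences and for a mean level over all libraries, GT and MT included. That rule favours regions that are also high in GT or MT, so this outcome is partly set by the choice. The regions with the largest differences in GT versus MT itself were partly others. At chr15:8657161-8657363, ranked first among regions higher in GT, the GT libraries had 53.1, 69.9 and 41.4 CPM and the MT libraries 1.91, 3.37 and 7.06 CPM (log2 fold change 4.0 ± 0.55, adjusted p = 1.05e-05). Without the library labelled GT replicate 1 the log2 fold change was 4.06. Its G and M libraries were separated in the same way, at 60.4 ± 15.2 and 8.4 ± 4.37 CPM (SD, n = 3). It was followed by chr1:75452098-75452357 and chr1:43424240-43424548, which are also among the 12 regions highest in G over M. Their GT minus MT log2 fold changes were 3.96 and 3.49, and 3.38 and 3.39 without that library. On the other side, chr15:27554910-27555280 had 6.32, 2.8 and 9.19 CPM in GT and 123, 104 and 77.7 CPM in MT (log2 fold change -4.20 ± 0.47, adjusted p = 3.87e-07, and -4.34 without that library). There M alone had 89.1 ± 21.4 CPM and G alone 5.49 ± 0.746 CPM. The first in rank on that side, chr15:59419636-59420074, varied more, with 132, 69.1 and 25.9 CPM in MT and 5.05, 1.86 and 6.89 CPM in GT. The third, chr3:115440637-115441271, had 217, 202 and 184 CPM in MT and 12.3 ± 6.03 CPM in GT. T alone stood at 68.7 ± 22.2 CPM there, against 10.6 ± 11 CPM in G and 18.3 ± 9.56 CPM in the control.

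**Figure D3:**
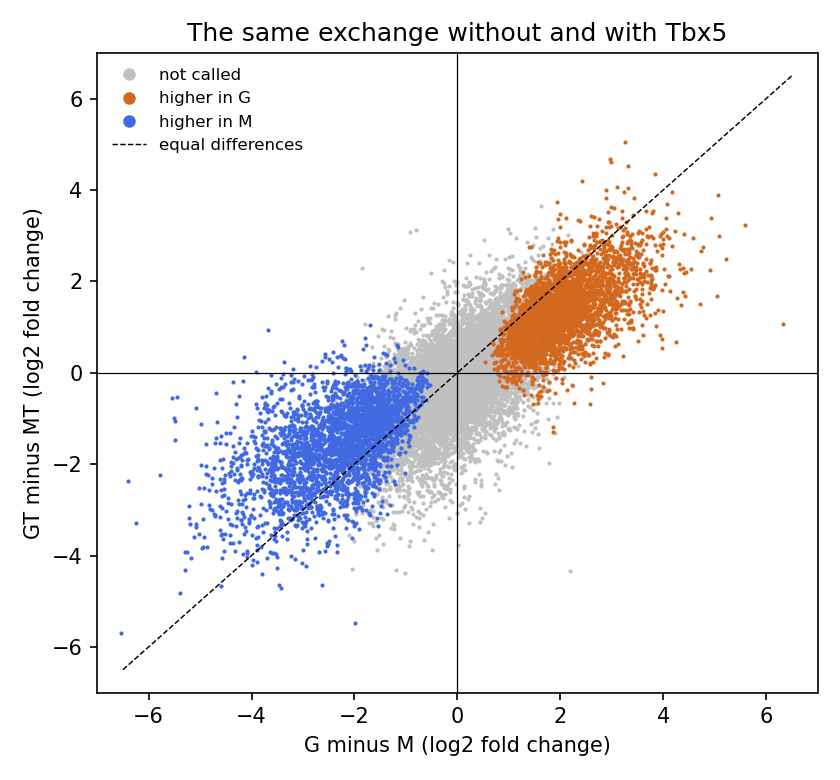
Each point is 1 region, with the G minus M log2 fold change on the x axis and the GT minus MT log2 fold change, from other libraries, on the y axis. Coloured regions were called in G versus M, and 98.0% of them lie in the upper right or lower left quadrant; their distance from 0 on the x axis is partly set by that choice.

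Whether the difference between Gata4 and Mef2c changed when Tbx5 was present was tested directly, as G minus M against GT minus MT. A single region passed (0.00488% of those tested). With all libraries, an unadjusted p under 0.05 was found at 1192 regions (5.82%), where 5% would be found if no region differed. The share was larger without the library labelled GT replicate 1, at 1507 of 21657 regions. The share with all libraries therefore does not show that no other region differed. Other fits with libraries left out ranged from 844 of 21738 (without replicate 3 of every group) to 1957 of 21753 (without GT replicate 2). DESeq2 also called 1 region, with 1056 at an unadjusted p under 0.05. The median standard error of this contrast was 0.72 on the log2 scale, so that modest changes were not detectable. The region, chr8:4230734-4231155 (422 bp), had 325, 161 and 219 CPM in G and 16.7, 21.7 and 24.4 CPM in M, a log2 fold change of 3.50 ± 0.32 (adjusted p = 1.11e-08). With Tbx5 the GT libraries had 235, 343 and 202 CPM and the MT libraries 131, 206 and 155 CPM, and T alone had 158 ± 32.9 CPM, so that MT lay near T and not near M. The GT and MT libraries overlapped, with a GT minus MT log2 fold change of 0.69 ± 0.26 (adjusted p = 0.0609). The difference between the 2 contrasts was 2.82 ± 0.41 (adjusted p = 0.0015), and 2.75 without the library labelled GT replicate 1 (adjusted p = 0.00913). It kept its size but not its call with replicate 1 of every group left out (2.48, adjusted p = 0.204) and with replicate 3 of every group left out (2.84, adjusted p = 0.252), and 7 regions were called without GT replicate 2.

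The levels of cells given both factors were read at the called regions. At regions higher in G, the median log2 CPM over regions was 4.96 to 5.65 in the G libraries and 3.45 to 3.78 in the M libraries, as the choice requires. The GM libraries had 4.49 to 4.88 there. At regions higher in M the M libraries had 5.25 to 5.36, the G libraries 2.93 to 3.7 and the GM libraries 4.43 to 4.49. Since the regions were chosen for a large difference between G and M, a place between them is largely set by that choice. The control and T, which have neither factor, also had median levels between G and M, at 4.17 and 3.77 for regions higher in G and at 3.72 and 3.4 for regions higher in M. At the named regions, the lowest GM library was above the highest M library at 11 of the 12 regions higher in G and above the highest G library at all 12 regions higher in M.

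The position of GM was tested against the midpoint of G and M on the log scale, a contrast that uses both groups with equal weight. Where G and M differ, this midpoint lies below the plain mean of their CPM. A place above the midpoint thus does not by itself put GM above that mean. GM was called above the midpoint at 116 regions (0.566% of those tested) and below it at 1 (0.00488%), a total of 117 (0.571%). That total varied with the libraries used. It was 68 without G replicate 1, 62 without G replicate 3, 68 without M replicate 1 and 63 without M replicate 2. Without G replicate 2 it was 127, without M replicate 3 105, and without the library labelled GT replicate 1 207. It was 15, 59 and 0 when replicate 1, 2 or 3 of every group was left out, fits with fewer libraries in all groups. Among regions higher in G, 65.6% lay above the midpoint with a median of 0.17, and 18 (0.554%) were called. Among regions higher in M, 66.7% lay above it with a median of 0.26, and 53 (1.74%) were called higher and 1 lower. Over all regions tested 53.7% lay above it, with a median of 0.04. At chr3:128997626-128998215 GM exceeded both single factors on average, with 178, 52.1 and 144 CPM in GM, 83.4, 20.8 and 62.9 CPM in G and 16.7, 19.7 and 11.1 CPM in M. It lay 2.04 ± 0.38 above the midpoint on the log2 scale (adjusted p = 0.00576), a call lost when replicate 1 or 3 of every group was left out (adjusted p = 0.0531 and 0.603). At chr12:33285452-33285984 the GM libraries had 65.1, 27.3 and 60 CPM, the M libraries 11.7, 17.6 and 20 CPM and the G libraries 2.72, 7.79 and 0.706 CPM. That region lay 2.96 ± 0.55 above the midpoint (adjusted p = 0.00576), and its call was lost in the same fits (adjusted p = 0.0826 and 0.603).

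Groups with neither factor were set against the same midpoint. T, which had the inhibitors, lay below the midpoint of G and M at 75.6% of the regions higher in G (median -0.76) and at 77.7% of those higher in M (median -0.79), against 54.5% of all regions tested (median -0.11). T was called lower at 663 (20.4%) and 658 (21.6%) of them, against 11.8% of all regions, and called higher at 278 (8.56%) and 189 (6.21%), against 17.7%. The control, which had no inhibitors, lay below the midpoint at 63.3% and 67.7% of the 2 sets, against 52.8% of all regions. It was called lower at 137 (4.22%) and 204 (6.7%) of them and higher at 145 (4.46%) and 89 (2.92%), against 2.72% lower and 4.72% higher over all regions. The calls of the control were few and varied with the libraries used. Over all regions there were 1525 (7.44%), 664 without G replicate 1, 806 without M replicate 2 and 2220 without G replicate 2. Leaving out replicate 1, 2 or 3 of every group, and so fitting fewer libraries in all groups, gave 883, 431 and 13. For T, where 6058 regions (29.6%) were called, leaving out replicate 1 or 2 of every group gave 4032 and 3564. These contrasts share the G and M libraries with the comparison that chose the regions. The count filter also keeps a region that reaches the minimum in the libraries of a single group. Regions high only in G or only in M thus enter with T and the control low, so the shares are partly set by the choice.

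The regions farthest from the midpoint show these orders. At chr2:84624028-84624336 T was nearly empty, with 61.8, 67.2 and 66.5 CPM in M, 20.8, 33.8 and 27.6 CPM in G and 0, 1.79 and 3.8 CPM in T. The difference of T from the midpoint was -4.22 ± 0.60 on the log2 scale (adjusted p = 1.72e-06). At chr3:105721047-105721252 the G libraries had 145, 119 and 177 CPM, the M libraries 31.8, 21.7 and 42.1 CPM and the T libraries 0, 3.59 and 7.6 CPM. Among the GT libraries of this region, replicate 1 had 148 CPM and the others 24.2 and 25.3 CPM. The opposite order was seen at chr4:118723408-118723968, where T had 163 ± 39.2 CPM, G 21.3 ± 15.2 CPM and M 7.04 ± 1.94 CPM, and at chr15:38818019-38818611, where T had 183 ± 95.2 CPM, M 29.3 ± 11.2 CPM and G 9.07 ± 1.31 CPM. At chr6:122639898-122640102 the control was highest, with 109, 132 and 107 CPM, against 40.8, 57.1 and 36.7 CPM in G and 13.4, 7.24 and 8.87 CPM in M. A second such region was chr1:122133040-122133272, with 137 ± 11.8 CPM in the control, 44 ± 23.5 CPM in G and 15.5 ± 2.11 CPM in M. At chr3:52890609-52891176 the control was lowest, with 4.45, 1.3 and 3.78 CPM, against 9.97, 15.6 and 24.7 CPM in G and 80.2, 43.4 and 88.7 CPM in M. The control was also lowest at chr15:80081059-80081398, at 1.69 ± 1.49 CPM against 28.9 ± 15.4 CPM in G and 8.47 ± 3.12 CPM in M. All 4 differences of the control from the midpoint lost their call with replicate 3 of every group left out.

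**Figure D4:**
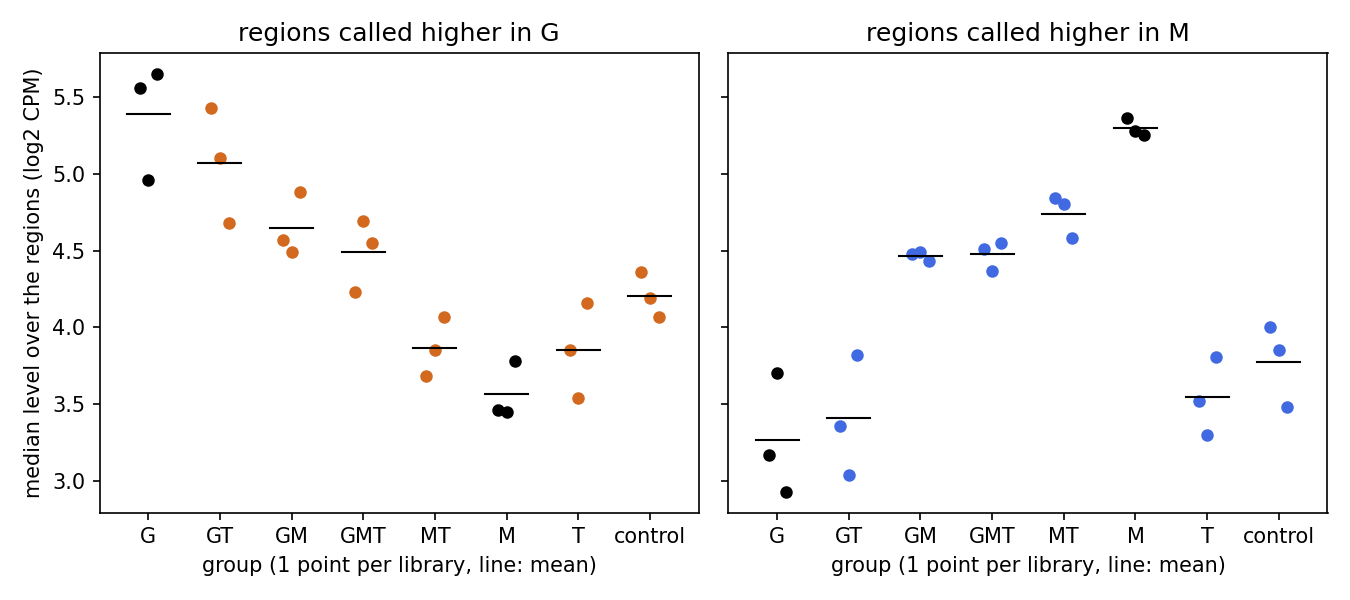
Each point is 1 library and gives its median level (log2 CPM) over the 3248 regions called higher in G (left) or the 3045 called higher in M (right), and lines are means of 3 libraries. Black points are the G and M libraries that chose the regions; GT lies above MT in the left panel and below it in the right one, and GM and GMT lie between G and M.

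Many regions could not be called either way. The 95% interval of the G minus M difference lay within 1 log2 unit of 0, a 2-fold change, at 3561 regions (17.4%), of which 2 were called. These were the brighter regions, with a median mean log2 CPM of 6.84 and a median standard error of 0.28. The 3 with the highest level had 738 to 1100 CPM on average in either group. At chr15:44259359-44259640 the G libraries had 817, 1280 and 827 CPM and the M libraries 1020, 1170 and 1120 CPM, with an interval of -0.60 to 0.23. The ranges of the groups overlapped there. At chr15:3945592-3946236 the difference was -0.38 with an interval of -0.77 to 0.02. At chr8:4166019-4166413 a small difference was called, with 681, 870 and 677 CPM in G and 1140, 1060 and 1020 CPM in M (log2 fold change -0.53 ± 0.17, adjusted p = 0.0163). Another 10642 regions (51.9%) were neither called nor shown to be within 2-fold, and their median standard error was 0.56. When replicate 2 or 3 of every group was left out, 1861 and 1993 regions had an interval within 2-fold.

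Calls were less frequent among the brightest regions. The regions were split by mean level into 4 bins of equal size. In the bin with the highest level, 9.74% of regions were higher in G and 7.08% higher in M, although the median standard error was lowest there, at 0.30. In the lowest bin, 16.4% were higher in G and 21.1% higher in M, with a median standard error of 0.70. In bin 3 of 4, regions higher in G (20.1%) outnumbered those higher in M (14.2%).

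The exact width of a region went with the direction of its difference. The table has regions of 201 to 1484 bp, and widths of 201 to 207 bp pile up: 5878 of the regions tested (28.7%) fall there. At a width of 203 bp, 562 of 1440 regions (39%) were higher in M and 33 (2.29%) higher in G. At 206 bp, 330 of 577 (57.2%) were higher in G and 8 (1.39%) higher in M, and at 207 bp 263 of 837 (31.4%) were higher in G and 19 (2.27%) higher in M. The level relative to the mean of all groups was highest in the control at 201 bp, in M at 203 bp, in T at 204 bp, in GMT at 205 bp and in G at 206 and 207 bp. Over regions of 206 bp the median log2 CPM was 4.9, 4.55 and 5.01 in the G libraries, 3.46, 3.31 and 3.53 in the M libraries and 4.93, 3.79 and 4.04 in the GT libraries. GT replicate 1 was thus again at the level of G. Among the 14616 regions of 208 bp and over, 2314 were higher in G and 2291 higher in M, and within these the regions of 500 bp and over had 261 (19.1%) higher in G and 204 (14.9%) higher in M. A fit with only those regions, chosen after the data were examined, called 4632 (31.7%), 2352 higher in G and 2280 higher in M. How the regions were defined is not given in the sources used here, and its part in the counts at each width was not tested.

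**Figure D5:**
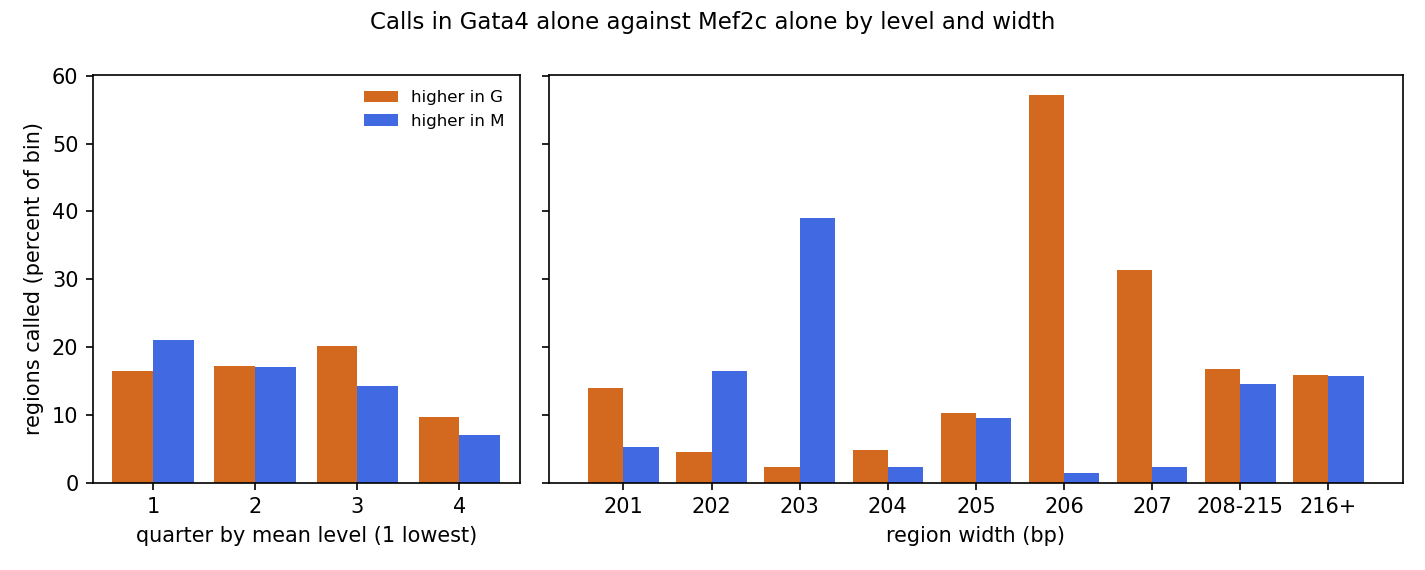
Bars give the percent of tested regions called higher in G or higher in M, by bin of mean level (left, 4 bins of equal size) and by region width in bp (right), from 0 upward. At widths of 203, 206 and 207 bp nearly all calls go one way, and the bins of 208-215 bp and of 216 bp and over have similar shares in both directions.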

How the data were processed

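The values are whole-number counts for each region in each library, as the authors deposited them, with no normalization. Alignment and counting tools listed in the submitters' processing notes are Bowtie2, Picard and featureCounts (no versions given), with mm9 as the build. Region definition, read filters and whether reads or fragments were counted are not given in the sources used here. Per the labels, aliquots of 50000 cells were transposed and libraries amplified for 12 cycles.

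The tests used edgeR 4.0.16 and limma 3.58.1 under R 4.3.3. Of 30815 regions, filterByExpr (minimum count 10, minimum total 15) kept 20494 (66.5%). The 24 libraries of 8 groups were scaled by TMM and fitted together with the quasi-likelihood test, and p-values were adjusted by Benjamini-Hochberg over all regions tested in each of 6 contrasts. The SE is the log2 fold change divided by the square root of the F statistic. Log2 CPM used a prior count of 2. The code was run on simulated data in which all regions shared the same spread and few differed between G and M. These settings differ from the data, so that run gives no error rates for them. DESeq2 1.42.0 was an alternative. Named regions were the 12 called regions with the highest and lowest G minus M values (3 per side for GT versus MT and the interaction, 2 per side for contrasts with the midpoint, among regions called in G versus M) whose mean level reached the median of all regions tested and, for comparisons of 2 groups, libraries that do not overlap. The comparison and lists were chosen with earlier results of these data known. Widths and runs of regions were examined after the values were seen. Depths and the worth of 1 count are given in the report. Samples labelled dsRed with inhibitors are not analysed here.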

Additional observations from a re-analysis of the deposited data

Results flagged for a closer look

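At chr8:4230734-4231155 the difference between G and M differed from that between GT and MT by 2.82 on the log2 scale, in a direct test of the difference with an adjusted p of 0.0015 by edgeR's quasi-likelihood test. It was the only region past the threshold among 20494. The adjusted p ranged from 1.55e-05 with DESeq2 to 0.252 with replicate 3 of every group left out, and the difference from 2.48 to 3.15.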

How the results depend on the processing

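The 24 named regions of G versus M kept direction and call in all 480 alternative values, an outcome largely set by their choice as extreme regions. Of all G versus M calls, 66.4% were kept at an adjusted p below 0.01. For the other named regions, 14 of 322 alternative values lost the call, all in the contrast between the 2 differences or against the midpoint. The G versus M calls numbered 6315 with RLE size factors, 6107 with total counts alone, 6405 with loess offsets, 5920 with DESeq2, 7038 with no filter and 4838 at a minimum fold of 1.5. They fell to 4144 under the stricter filter (1795 higher in M) and to 4179 at an adjusted p below 0.01 (2051 higher in G). Leaving out replicates gave 3012 to 7217 in all, 1445 to 3647 higher in G and 1567 to 3580 higher in M. GT versus MT had 2464 calls at a minimum fold of 1.5, 1880 at an adjusted p below 0.01 and 1323 to 4459 with replicates left out. The same sign was found at 97.3% with loess offsets and at 95.5% without the library labelled GT replicate 1, where 29.2% were called the same way. Leaving out replicates gave 0 to 7 regions for the difference between the contrasts and 1861 to 3744 for intervals within 2-fold. Calls of GM against the midpoint numbered 67 with loess offsets, 21 at a minimum fold of 1.5, 37 at an adjusted p below 0.01 and 0 to 207 with replicates left out. Calls of T numbered 3704 at an adjusted p below 0.01 and 3564 to 6497 with replicates left out. Those of the control numbered 268 at a minimum fold of 1.5, 362 at an adjusted p below 0.01 and 13 to 2220 with replicates left out. The median width of regions higher in G minus that of regions higher in M was -4 bp, and in 4 bins of level, from low to high, -28, -13.5, -18.5 and 34 bp. Stricter thresholds call fewer regions by construction. Leaving out libraries gave fewer calls in some fits and more in others, and the cause was not tested. Replicate numbers showed no clear pairing of the samples, which a few weak correlations cannot settle. Deviations of same-numbered G and M libraries correlated at -0.09 to 0.05, and those with different numbers at -0.18 to 0.17. For GT and MT libraries the ranges were -0.01 to 0.19 and -0.24 to 0.13. A fit with the replicate number as a block called 6218 regions in G versus M and changed no call of a named region. At the worth of 1 count given above, levels of a few CPM rest on a handful of counts.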

Other observations

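On the X chromosome more regions were higher in M than in G. Of its 346 regions tested, 72 (20.8%) were higher in M and 41 (11.8%) higher in G, against 14.8% and 15.9% of autosomal regions. In GT versus MT, 14.5% of the X regions were called higher in MT and 6.07% higher in GT, against 11.2% and 8.6% of autosomal regions. Without the library labelled GT replicate 1 these shares were 8.29% and 2.94%, against 7.64% and 5.21%. The chromosome was singled out after its values were seen, and the difference from autosomes was not tested.

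Of 4750 pairs of neighbouring regions less than 10 kb apart, 500 had both regions called in G versus M. The first region was called in 27.8% of the pairs, against 30.7% of all regions tested. Whether calls fall together more often than these shares give was not tested. Of the 500 pairs with both called, 381 (76.2%) had the same direction, 201 of them higher in G and 180 higher in M. The other 119 were opposite, where 51.6% of all calls were higher in G. There were 16 runs of 3 or more neighbours higher in G and 14 higher in M, and how many to count on without grouping was not worked out. The longest had 4 regions, and both such runs were higher in G. On chromosome 11 the run began with chr11:81844500-81844792, with 34.2 ± 12.1 CPM in G and 2.15 ± 1.86 CPM in M (SD, n = 3), and ended with chr11:81852039-81852374, with 54.4 ± 29.4 and 12.5 ± 2.69 CPM. Its log2 fold changes ran from 1.23 to 3.78. On chromosome 3 the run held chr3:102474042-102474341, with 33.3 ± 6.34 CPM in G and 1.99 ± 0.283 CPM in M, and chr3:102463311-102463562, with 64.2 ± 35.5 and 11 ± 0.68 CPM. Its log2 fold changes ran from 2.25 to 3.99. Within it, chr3:102474042-102474341 and chr3:102474390-102474592 almost adjoin, so they are not independent examples. In GT versus MT the 8 regions of both runs had the same sign, and 2 of them were called, against 19.8% of all regions tested. Without the library labelled GT replicate 1 all 8 kept the sign and none was called, against 12.8% of all regions tested.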
